A study of Homo sapiens with 4 samples.

Results

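The 10 circadian clock genes described here are CLOCK, ARNTL, PER1, PER2, PER3, CRY1, CRY2, BHLHE40, BHLHE41 and NFIL3. They were chosen by name among the 58735 genes of the deposited tables, and all 10 were found, with 88 annotated transcripts. RNA came from H1299, a human lung cancer cell line, in 2 groups of 2 libraries each, 1 given 0.5 mM methylparaben for 48 h and 1 labelled as ethanol controls. Methylparaben is the methyl ester of para-hydroxybenzoic acid and serves as a preservative in foods and cosmetics. The amount of ethanol, its duration, any synchronisation of the cells and the clock time of harvest are not given in the labels, and all data come from a single cell line and a single treatment time. The labels call the libraries duplicates without saying whether the cultures were separate. The p-values therefore rest on the spread between duplicates, which may be only technical. In bulk RNA, fewer expressing cells and less RNA per cell cannot be told apart.

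The circadian clock is a transcriptional feedback loop present in most cells. CLOCK and ARNTL (also called BMAL1) bind E-boxes as a pair and activate PER and CRY genes, whose proteins return to the nucleus and repress that pair. BHLHE40 and BHLHE41 (DEC1 and DEC2) compete for the same E-boxes, while NFIL3 (E4BP4) represses genes with D-boxes, the sites activated by DBP, TEF and HLF. A further loop runs through the nuclear receptors NR1D1, NR1D2 and RORA, which act on ROR elements in ARNTL and other genes. A single harvest of unsynchronised cells reads levels and not rhythm.

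With methylparaben, BHLHE40 and NFIL3 were higher and the activator gene CLOCK was lower on reads of protein-coding transcripts, while PER3 and CRY1 were higher on reads almost wholly of retained-intron transcripts. BHLHE40 rose 13.97-fold, NFIL3 rose 3.14-fold, PER3 rose 25.1-fold and CRY1 rose 8.04-fold, while CLOCK fell 2.07-fold. ARNTL, PER2 and BHLHE41 did not pass the test, and PER1 and CRY2 had too few reads to be tested. Of the 10 genes 8 were tested with edgeR's quasi-likelihood test, and 5 had a Benjamini-Hochberg adjusted p under 0.05, 4 higher and 1 lower. Across all 8055 genes tested, 36.9% passed, 18.5% higher and 18.4% lower. Levels of the groups did not overlap in 6 of the 8 tested clock genes, 5 higher and 1 lower, which was the case for 70.5% of all genes tested, 35.5% higher and 35% lower. The median log2 fold change was 0.97 over the 8 tested clock genes and 0.03 over all genes tested. PER3 and CRY1 passed the filter on low counts only through the methylparaben libraries, so they had to lie higher there. That favours a higher call without fixing it, and neither the counts nor the median describe all 10 genes. Without these 2 genes the median of the tested clock genes was 0.26.

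**Figure D1:**
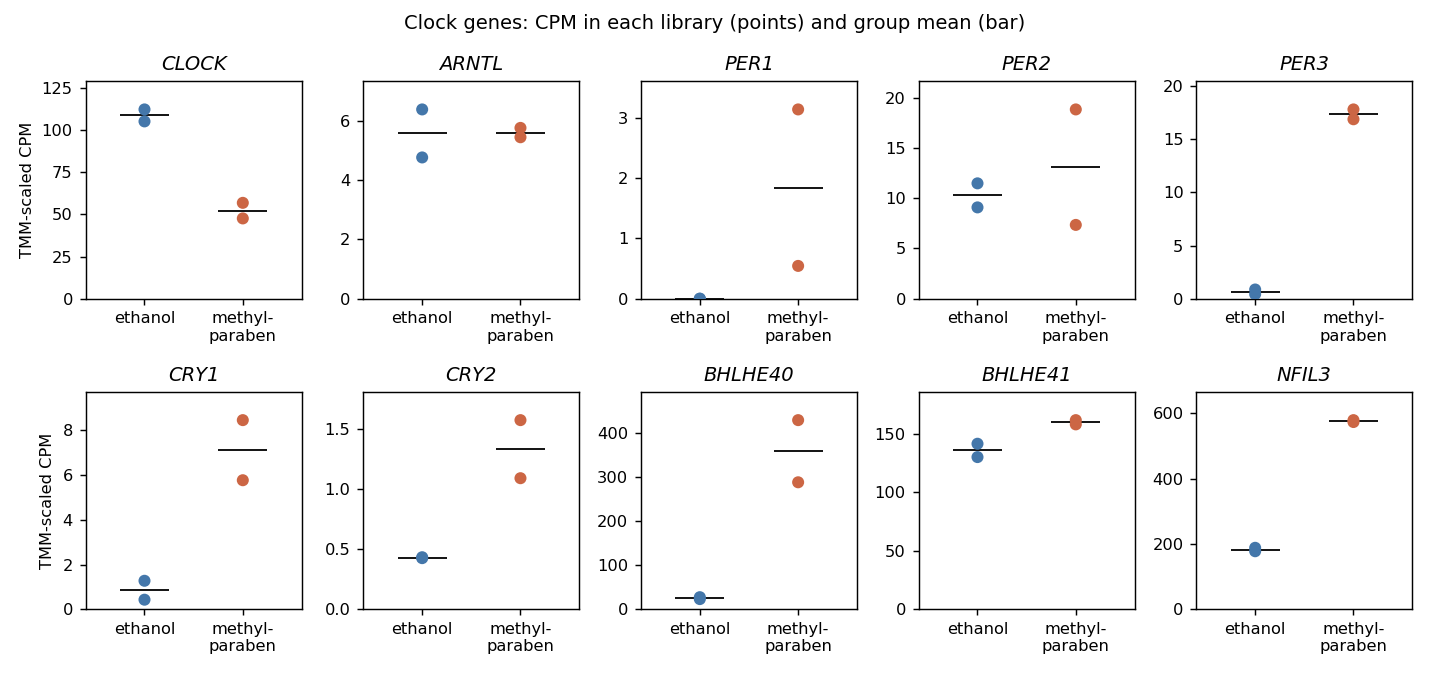
Level of each of the 10 clock genes in each library, in TMM-scaled CPM, with ethanol in blue, methylparaben in red and the group mean as a bar. Each panel has its own linear axis from 0. BHLHE40, NFIL3, PER3 and CRY1 lie higher and CLOCK lower in both methylparaben libraries, while the ARNTL and PER2 groups overlap.

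Totals ran from 2068486 to 3760982 counts per library, and levels are given as CPM, counts scaled to a common library size with TMM factors. A group with no count allows a level of up to 0.644 CPM in ethanol or 0.537 CPM in methylparaben, taking 3 counts over the group as the limit, which covers counting error only. No count was found in any library for any of 6 lung lineage markers (NAPSA, NKX2-1, SCGB1A1, SFTPA1, SFTPB, SFTPC) or 5 blood markers, and 3 of 6 epithelial markers were also at 0, with 9.09 to 17.0 CPM summed over the list in each library. Only part of the RNA of a gene could be counted, as described below. That part was not determined for the markers, so a 0 need not mean that a marker was absent. The 4 markers of a mesenchymal-like line summed to 1341 and 1836 CPM in ethanol and 634 and 568 CPM in methylparaben, nearly all of it AXL at 1253, 1767, 599 and 534 CPM, while CDH2 and ZEB1 had 0 to 3 counts. The part of that difference in the values below was not tested.

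Reads were counted only on transcripts that hold bases shared with no other annotated transcript, and this decides which RNA of each clock gene was read. Of the 88 transcripts 22 had reads, 7 protein-coding and 15 annotated as retained introns, meaning that they keep intron sequence. All reads of CLOCK, PER2 and NFIL3, and 98.8% and 99.7% of those of BHLHE40 and BHLHE41, fell on protein-coding transcripts. In contrast, retained-intron transcripts held all reads of PER1, CRY1 and CRY2, 98.0% of those of PER3 and 80.7% of those of ARNTL. The 4 long coding transcripts PER3-201, PER3-202, PER3-208 and PER3-209 had 0 single-transcript bases and could not be counted. The main coding transcript PER1-201 had 5 such bases in 4707, and CRY1-201 had 319 in 3267 with no read in any library.

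Transcripts annotated as retained introns rose in general. Of all counts they held 2.73% in each ethanol library, and with methylparaben 4.22% and 3.95%. In an edgeR fit over 9167 single transcripts, 39.4% passed in either direction. There 39.7% of the 1545 tested retained-intron transcripts rose and 6.02% fell, with a median log2 fold change of 1.02, against 14.7% and 25.4% of 4662 protein-coding ones, with a median of -0.18. For PER1, PER3, CRY1 and CRY2 this shift moves with the results, and its part in them was not tested. Protein-coding transcripts held 70.5% and 72.7% of all counts in ethanol and 61.9% and 58.8% with methylparaben. CLOCK, read on a coding transcript, moves with that decrease, whose part was not tested either, while BHLHE40 and NFIL3 move against it. Without retained-intron transcripts 5 of the 10 genes could be tested, of which BHLHE40 and NFIL3 rose and CLOCK fell, against 35% of all 7195 genes tested that way.

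**Figure D2:**
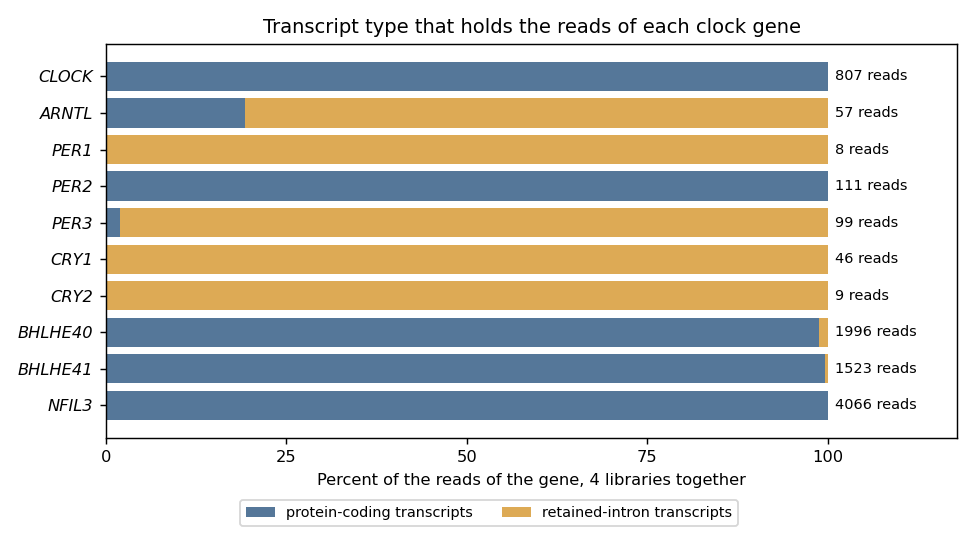
Percent of the reads of each clock gene, summed over the 4 libraries, that fall on protein-coding (blue) or retained-intron (yellow) transcripts, with the number of reads at the right. CLOCK, PER2, BHLHE40, BHLHE41 and NFIL3 were read almost wholly on coding transcripts, and PER1, CRY1, CRY2 and nearly all of PER3 on retained introns.

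CLOCK encodes the larger activator subunit, a basic helix-loop-helix protein with histone acetyltransferase activity. The gene lies on chromosome 4, 55427903 to 55547138 (GRCh38), on the minus strand. Its counts were 264 and 243 in ethanol and 209 and 91 in methylparaben, or 112, 105, 56.9 and 47.6 CPM in that order. Both methylparaben libraries lay below both ethanol libraries, with means of 109 ± 5.02 and 52.2 ± 6.54 CPM (SD, n = 2 per group). The log2 fold change was -1.05 ± 0.22 (SE), with an adjusted p of 0.00522. A decrease of at least 2-fold that passed the test was seen in 14.4% of all genes tested. All CLOCK reads fell on CLOCK-201, whose 4573 single-transcript bases (chromosome 4, 55427903 to 55432475) lie in the 3' untranslated end, so the coding exons themselves were not read. On deposited FPKM values the CLOCK call was lost, with adjusted p of 0.0602 and 0.0625 by limma at pseudocounts of 1 and 0.1.

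ARNTL encodes the partner of CLOCK. Its counts were 15 and 11 in ethanol and 20 and 11 in methylparaben, or 6.38, 4.76, 5.44 and 5.76 CPM, so the groups overlapped. The log2 fold change was 0.00 ± 0.54 (SE, 95% interval -1.20 to 1.20), with an adjusted p of 0.998. At 57 reads in all, a 2-fold change either way lies within that interval. The total hides an uneven make-up over its transcripts. The coding transcript ARNTL-208, whose 21 single-transcript bases lie in the 5' untranslated region, had 6 and 4 reads in ethanol and 0 and 1 in methylparaben. The retained-intron transcript ARNTL-206 (chromosome 11, 13378446 to 13381160) had 6, 6, 20 and 10 reads, a log2 fold change of 1.02 ± 0.59 with an adjusted p of 0.191, equal to the median of retained-intron transcripts. On the deposited FPKM values, which divide by transcript length, ARNTL was at -1.24 with an adjusted p of 0.0492 at a pseudocount of 1, and at -1.62 with 0.0634 at a pseudocount of 0.1.

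The other activators of the same kind were fixed in a list of 51 further clock genes. ARNTL2, a paralog of ARNTL, had 905 and 987 counts in ethanol and 655 and 283 in methylparaben, or 385, 427, 178 and 148 CPM. Its level fell in both libraries, with a log2 fold change of -1.31 ± 0.18 and an adjusted p of 0.000596. Coding transcripts held 2829 of its 2830 reads. NPAS2, which can replace CLOCK, had 0, 0, 5 and 0 counts and could not be tested. Per kilobase of single-transcript sequence, ARNTL2 stood at 89.8 ± 6.61 CPM in ethanol and 36.1 ± 4.71 in methylparaben. ARNTL stood at 1.64 ± 0.337 and 1.65 ± 0.0655. Of the 3399 single-transcript bases of ARNTL, 177 lie on transcripts of protein-coding type, coding or untranslated, and 3125 on retained-intron transcripts.

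Among the PER genes, which encode the repressors that give the loop its delay, PER3 changed most. PER3 (chromosome 1, 7784320 to 7845177, plus strand) had 1 and 2 counts in ethanol and 62 and 34 in methylparaben, or 0.425, 0.866, 16.9 and 17.8 CPM. The ethanol libraries were close to 0 and both methylparaben libraries were near 17 CPM. The fitted log2 fold change was 4.65 ± 0.63 with an adjusted p of 0.000606, and the ratio of summed counts, scaled to library size, was 26.7 with an exact binomial 95% interval of 8.87 to 132. PER3 entered the test only through the methylparaben libraries, so its call and the 1.78% of the 8055 tested genes with an at least 8-fold increase past the threshold are given as a description. Most of the reads lay on neighbouring parts of the gene, on PER3-207 with 1, 1, 41 and 23 reads and on PER3-205 with 0, 1, 16 and 9. The 955 single-transcript bases of PER3-207 lie at chromosome 1, 7787322 to 7788044 and 7788339 to 7788570, and are in no exon of any other annotated transcript. PER3-207 alone was at 4.58 ± 0.73 with an adjusted p of 0.00127. The coding transcript PER3-203 had 0, 0, 1 and 1 reads.

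The 250 bases before the PER3 start site are shown because this window holds a D-box, the kind of site that NFIL3 and DBP bind. RefSeq gives PER3 2 start sites, and a D-box was found in the 250-base window of the upstream one only. The window of the downstream one covers 7784179 to 7784428. The same D-box also lies upstream of that start, but outside its window. The sequence is from RefSeq (GRCh38.p14, chr1:7784041-7784290, plus strand), 5' to 3', with the D-box TTATGTAA in capitals, 177 bases before the start.
PER3: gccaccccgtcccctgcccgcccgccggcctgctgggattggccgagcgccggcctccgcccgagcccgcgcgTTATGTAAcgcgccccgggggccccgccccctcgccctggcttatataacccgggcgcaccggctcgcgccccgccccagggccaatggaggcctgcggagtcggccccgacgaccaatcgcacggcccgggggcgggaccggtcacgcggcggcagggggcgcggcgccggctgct
A D-box (TTATGTAA, TTATGCAA or TTACGTAA, both strands) was found in 1.72% of 35116 such RefSeq windows of 27305 genes. The match is a description of the letters and does not show a bound site.

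PER2, the paralog with the longest readable coding sequence, had 27 and 21 counts in ethanol and 27 and 36 in methylparaben, or 11.5, 9.09, 7.35 and 18.8 CPM. One methylparaben library lay below and the other above both ethanol libraries. The log2 fold change was 0.29 ± 0.52 (95% interval -0.86 to 1.44, adjusted p of 0.696), and the interval reaches 2.71-fold higher. PER2 turned to -0.45 without methylparaben replicate 2, with an adjusted p of 0.611. PER1 had 0 and 0 counts in ethanol and 2 and 6 in methylparaben. The lower methylparaben library, at 0.544 CPM, lay under the 0.644 CPM that a count of 0 allows in ethanol, so no fold is given. Of the 8 PER1 reads 7 lay on PER1-216 (chromosome 17, 8141956 to 8142191).

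Counted within each library, the ratio of PER3 to PER2 reads was 0.0370 and 0.0952 in ethanol and 2.30 and 0.944 in methylparaben. It sets reads almost wholly of retained-intron transcripts, with 1 and 2 counts in ethanol, against reads of a coding transcript. It therefore does not compare the coding RNA of the genes, and the part of the general rise of retained-intron transcripts was not tested. The ratio does not depend on library scaling, and with 2 libraries per group a two-sided exact permutation test cannot give a p below 0.333, which it gave here.

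The cryptochromes CRY1 and CRY2 bind PER proteins and block CLOCK and ARNTL directly. CRY1 (chromosome 12, 106991364 to 107093829, minus strand) had 3 and 1 counts in ethanol and 31 and 11 in methylparaben, or 1.28, 0.433, 8.43 and 5.76 CPM. Both methylparaben libraries were higher than both ethanol libraries. The log2 fold change was 3.01 ± 0.74 with an adjusted p of 0.0109. That call was lost without ethanol replicate 1 (3.89, adjusted p of 0.0559), without ethanol replicate 2 (2.47, adjusted p of 0.0960) and without methylparaben replicate 1 (2.66, adjusted p of 0.145). CRY1 entered the test only through the methylparaben libraries, so its call is given as a description. All 46 CRY1 reads lay on CRY1-205, a retained-intron transcript with 1296 single-transcript bases. CRY2 had 1, 1, 4 and 3 counts and was not tested. Its ratio of summed counts was 2.92, with an interval of 0.556 to 28.8 that includes no change.

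BHLHE40 and BHLHE41 are close paralogs, both repressors at E-boxes, and both were read on coding transcripts. BHLHE40 (chromosome 3, 4979116 to 4985323, plus strand) had 55 and 64 counts in ethanol and 1058 and 819 in methylparaben, or 23.4, 27.7, 288 and 429 CPM. Both methylparaben libraries lay more than 10 times above the ethanol libraries. Means were 25.5 ± 3.05 and 358 ± 99.5 CPM, with a log2 fold change of 3.80 ± 0.25 and an adjusted p of 2.74e-05, the smallest among the clock genes. BHLHE40-201, the coding transcript, held 52, 63, 1045 and 813 of these reads, and its 2376 single-transcript bases cover the 5' end, 421 coding bases and 1634 bases of the 3' untranslated region. The call held under every alternative run, with log2 fold changes from 3.35 to 4.06.

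BHLHE41 (chromosome 12, 26120026 to 26125127, minus strand) had 306 and 327 counts in ethanol and 581 and 309 in methylparaben, or 130.1, 142, 158 and 162 CPM. The groups did not overlap, with methylparaben higher. The difference was small, at a log2 fold change of 0.23 ± 0.18 (95% interval -0.16 to 0.63, adjusted p of 0.325). Within each library, the ratio of BHLHE40 to BHLHE41 reads was 0.180 and 0.196 in ethanol and 1.82 and 2.65 in methylparaben, an 11.7-fold shift. BHLHE40 was thus the less abundant of the pair by count in ethanol and the more abundant in methylparaben. The exact two-sided permutation p of this shift was 0.333, the smallest that 2 against 2 libraries can give.

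Both paralogs hold the E-box CACGTG in the 250 bases before their RefSeq start, as 6.34% of the 35116 windows do. The 30 bases around each are shown to set the paralogs side by side, with the E-box in capitals, 5' to 3' on the strand of the gene (GRCh38.p14, chr3:4979187-4979216, plus strand, and chr12:26125068-26125097, minus strand). The E-box begins 245 bases before the start in BHLHE40 and 48 bases before it in BHLHE41. In GENCODE 29, which starts both genes further upstream, all 250 bases of the BHLHE40 window and 223 of the 250 bases of the BHLHE41 window lie in annotated exons of either strand.
BHLHE40: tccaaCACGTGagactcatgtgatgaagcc
BHLHE41: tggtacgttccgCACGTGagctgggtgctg
Whether either E-box is bound, or has a part in the BHLHE40 or BHLHE41 values, was not tested. The PER1 window was the other one with an E-box (chr17:8152560-8152589, minus strand), 173 bases before the start, and it also held a D-box (chr17:8152416-8152445). In GENCODE 29, 31 of the 250 bases of the PER1 window lie in annotated exons. These bases include the D-box, which begins 30 bases before the start.
PER1 E-box: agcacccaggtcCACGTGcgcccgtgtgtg
PER1 D-box: agtgcccggcaTTATGCAAcccgcctcccc
No window of the 10 genes, 15 start sites in all, held TGATGCAA, the core of the amino acid response element, which 0.772% of all windows hold.

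NFIL3 encodes a basic leucine zipper repressor of D-box genes. It lies on chromosome 9, 91409045 to 91423862, on the minus strand, and its single annotated transcript, of which all 2085 bases could be counted, makes it the best-read gene of the 10. Counts were 443 and 411 in ethanol and 2106 and 1106 in methylparaben, or 188, 178, 573 and 579 CPM. Libraries of a group lay close together and the groups were far apart, at 183 ± 7.43 and 576 ± 4.10 CPM. The log2 fold change was 1.65 ± 0.16 with an adjusted p of 0.000139, and it stayed between 1.54 and 1.78 and past the threshold under every alternative run. An increase of at least 3-fold that passed the test was seen in 9.32% of all genes. The ratio of NFIL3 to CLOCK reads was 1.68 and 1.69 with ethanol and 10.1 and 12.2 with methylparaben, a shift of 6.57-fold with an exact two-sided permutation p of 0.333. RefSeq gives NFIL3 2 start sites. A ROR element (AAGGTCA or TAGGTCA, both strands, found in 4.97% of windows) was found before the downstream one only. It begins 9 bases before that start (chr9:91423833-91423862, minus strand). Of the 250 bases before that start, 30 lie in annotated exons, and these include the element. ROR elements were also found before the PER1 start and both CRY2 starts, and in neither ARNTL window.
NFIL3 ROR element: acgtagcgcggcgctcggaacTGACCTAct

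Levels were compared between genes per kilobase of single-transcript sequence, in TMM-scaled CPM. In ethanol NFIL3 was highest at 87.8 ± 3.56, followed by BHLHE41 at 43.7 ± 2.59, CLOCK at 19.6 ± 0.905 and BHLHE40 at 9.56 ± 1.14, and these 4 did not overlap each other. PER2 at 1.93 ± 0.317 and ARNTL at 1.64 ± 0.337 overlapped, as did CRY1 at 0.471 ± 0.329 and PER3 at 0.408 ± 0.197. CRY2 stood at 0.215 ± 0.00267 and PER1 at 0. In methylparaben NFIL3 stayed highest at 276 ± 1.97, and BHLHE40 at 134 ± 37.3 stood above BHLHE41 at 51.4 ± 0.826. PER3 at 10.96 ± 0.413 stood just above CLOCK at 9.42 ± 1.18, without overlap. CRY1 at 3.91 ± 1.04, PER2 at 2.45 ± 1.52, ARNTL at 1.65 ± 0.0655, PER1 at 1.56 ± 1.55 and CRY2 at 0.666 ± 0.171 each overlapped the next. For ARNTL and for PER and CRY genes other than PER2 these are levels of mostly intronic sequence, and they do not give the level of the coding RNA.

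**Figure D3:**
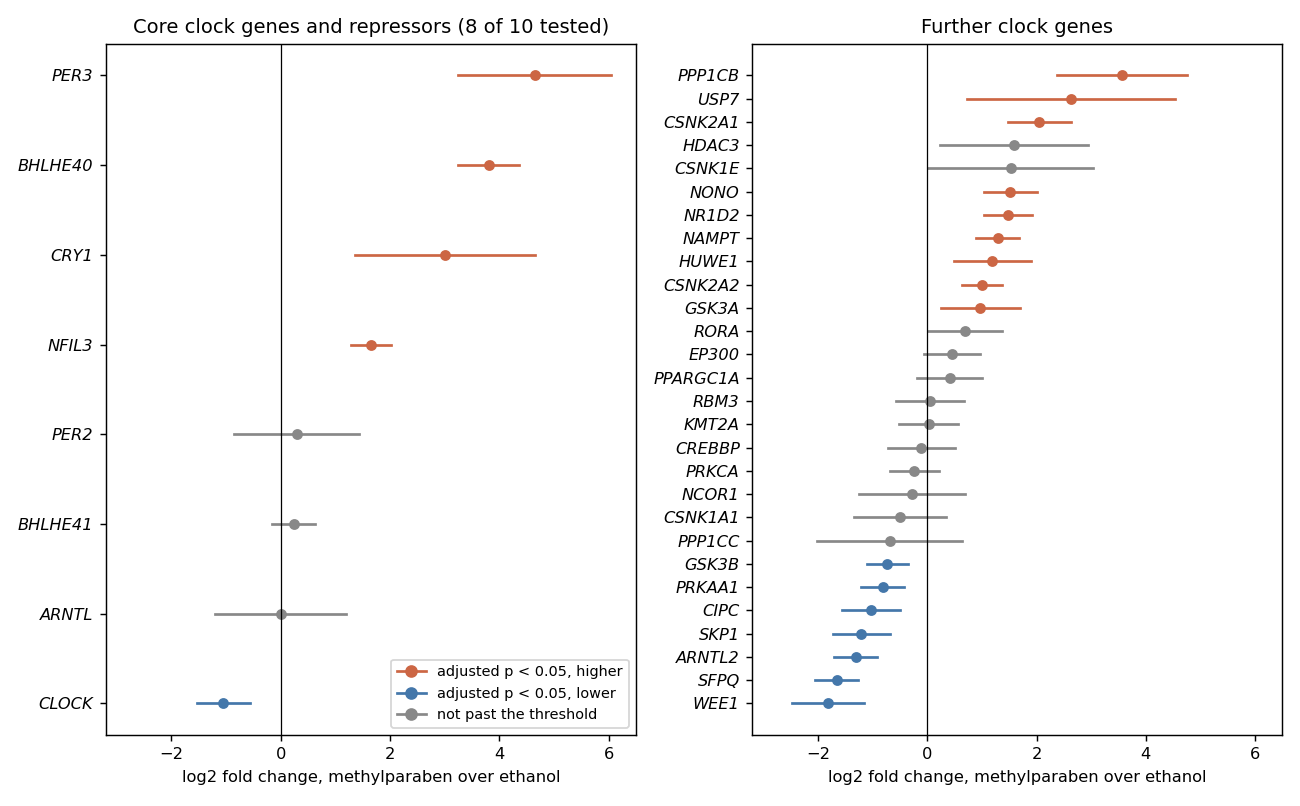
Log2 fold change of methylparaben over ethanol (point) with its 95% interval (line) for the 8 tested clock genes (left) and tested genes of the further clock list (right), from edgeR's quasi-likelihood fit over all genes. Red marks genes past an adjusted p of 0.05 that were higher, blue those that were lower, and grey those that did not pass. BHLHE40 and NFIL3 have short intervals far from 0, while those of PER3 and CRY1 are wide.

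The list of 51 further clock genes had 29 tested members, of which 9 rose and 8 fell, against 18.5% and 18.4% of all genes tested. Of these 29, PPP1CB, USP7, CSNK1E and HDAC3 passed the filter on low counts only through the methylparaben libraries, and the first 2 are among the 9 that rose. CSNK1E and HDAC3 are named after their values were seen. The median log2 fold change was 0.05, or -0.11 without these 4, beside 0.03 for all genes. No count in any library was found for 7 of the 51, and for 36285 of all 58735 genes. A gene without a count may still be expressed, as only single-transcript bases were counted. In the second loop, NR1D2 (REV-ERB beta), a repressor at ROR elements, had 346 and 395 counts in ethanol and 1880 and 723 in methylparaben, or 147, 171, 512 and 378 CPM. It was higher in both methylparaben libraries and read almost wholly on a coding transcript, with a log2 fold change of 1.49 ± 0.20 and an adjusted p of 0.000571. Its paralog NR1D1 had 0, 0, 3 and 3 counts and could not be tested. RORA, an activator at the same elements, was at 20.0, 18.2, 32.4 and 29.3 CPM, a log2 fold change of 0.70 ± 0.30 with an adjusted p of 0.0979. The RORA value depended on its transcripts, with 1.21 and an adjusted p of 0.0147 on coding transcripts alone, 1.31 for RORA-203 and -2.38 for RORA-207 taken singly, and -0.30 and -0.36 on FPKM values.

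The D-box activators, whose sites NFIL3 also binds, were scarcely read. DBP had 0, 0, 7 and 13 counts, all on a retained-intron transcript, or 1.90 and 6.80 CPM in the methylparaben libraries. TEF had a single count, in methylparaben, and HLF had none, which allows up to 0.644 CPM in ethanol and 0.537 CPM in methylparaben. CIART, a repressor of CLOCK and ARNTL, had 0, 0, 5 and 1 counts and could not be tested. All 6 CIART reads were on a retained-intron transcript.

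Of the 6 genes for repressor partners 3 were tested, and 1 rose and 2 fell, beside 18.5% and 18.4% of all genes tested. SFPQ, a PER-associated RNA-binding protein, was at 872, 877, 308 and 246 CPM, a log2 fold change of -1.65 ± 0.18 with an adjusted p of 0.000204. CIPC, which inhibits CLOCK, was at 68.0, 75.3, 35.4 and 34.5 CPM, or -1.03 ± 0.24 with 0.00861. NONO, a partner of SFPQ, was at 40.4, 41.6, 119 and 117 CPM, or 1.52 ± 0.21 with 0.000747, but 0.118% of its reads lay on coding transcripts, and NONO-214 taken singly was at -0.98 with an adjusted p of 0.242. SFPQ and CIPC thus fell on mostly coding reads, and the NONO increase came from noncoding ones.

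Kinases and phosphatases that act on PER, CRY and CLOCK proteins included 4 higher and 2 lower of 10 tested, beside 18.5% and 18.4% of all genes tested. CSNK2A1 and CSNK2A2, catalytic subunits of casein kinase 2, rose 4.14-fold (adjusted p of 0.000445) and 2.01-fold (0.00157). Coding transcripts held 31.1% of the CSNK2A1 and 99.9% of the CSNK2A2 reads, and CSNK2A1-243 taken singly was at -0.42 with an adjusted p of 0.572. PPP1CB, a catalytic subunit of protein phosphatase 1, had 4, 3, 64 and 37 counts, or 3.57 ± 0.53 with 0.00101, with 15.7% of its reads on coding transcripts. PPP1CB entered the test only through the methylparaben libraries, so its call is given as a description. GSK3B, which phosphorylates several clock proteins, was at -0.73 ± 0.17 (0.00794, and 0.0851 without ethanol replicate 2), and PRKAA1, a catalytic subunit of AMP-activated kinase, at -0.82 ± 0.18 (0.00601). The 4th that rose was GSK3A, a paralog of GSK3B, at 0.97 ± 0.33 with an adjusted p of 0.0406. GSK3A was named after its values were seen, and its call was lost in 8 alternatives, DESeq2 (0.112) among them.

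In the ubiquitin and deacetylase group 9 genes were tested. Across all genes tested 18.5% rose and 18.4% fell. SKP1, a subunit of SCF ubiquitin ligases, was at 88.0, 109.5, 44.3 and 40.8 CPM, a log2 fold change of -1.21 ± 0.23 with an adjusted p of 0.00363. Those that rose, 2 genes named after their values were seen, were the ubiquitin ligase gene HUWE1 at 1.19 ± 0.32 (0.0155, and 0.0807 without ethanol replicate 2) and the deubiquitinase gene USP7 at 2.63 ± 0.85 (0.0356, and 0.152 without ethanol replicate 1). Coding transcripts held 12.8% of the HUWE1 and 1.67% of the USP7 reads. USP7 entered the test only through the methylparaben libraries, so its call is given as a description. Among clock outputs 1 gene rose and 1 fell of 4 tested, beside the same shares of all genes. NAMPT, the rate-limiting enzyme of NAD salvage, was at 348, 352, 960 and 747 CPM, or 1.29 ± 0.18 with 0.000682, and WEE1, a G2/M checkpoint kinase, at 48.1, 43.7, 13.3 and 12.6 CPM, or -1.82 ± 0.30 with 0.00162.

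**Figure D4:**
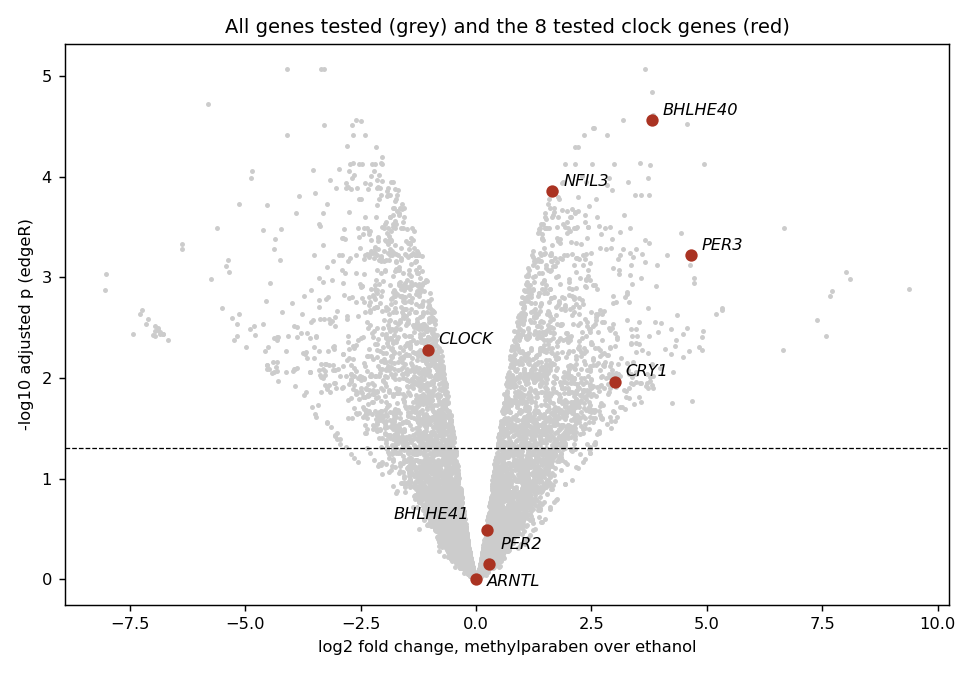
Log2 fold change (x axis) against -log10 of the adjusted p (y axis) for all 8055 genes tested in grey, with the 8 tested clock genes in red and the dashed line at an adjusted p of 0.05. BHLHE40, NFIL3, PER3 and CRY1 lie above the line on the right and CLOCK above it on the left, and BHLHE41, PER2 and ARNTL lie below the line near 0.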

How the data were processed

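RNA-seq of 4 H1299 libraries was analysed from 2 deposited tables. The authors deposited raw read counts for 206601 transcripts, and also FPKM and log2 (FPKM + 1) values per transcript, per the file headers. The deposited table further gives a p-value per transcript of the authors' own comparison, whose test is not named. GRCh38, DESeq2, limma and edgeR are listed without roles, per the submitters' processing notes, with the aligner and counter not given in the sources used here. All transcripts were found in GENCODE release 29. None of the 70749 transcripts without a base of their own had a read, strands not kept apart.

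Rows named for the 10 genes were joined to counts by transcript identifier, and counts were summed per gene over the whole table. Genes were filtered (filterByExpr, minimum count 10, minimum total 15), scaled by TMM and tested with edgeR 4.0.16 (R 4.3.3), 2 against 2 libraries, two-sided, Benjamini-Hochberg over 8055 genes, threshold 0.05. The script was tested on simulated data. SE is the size of the log2 fold change over the square root of F. Depth ran from 2068486 to 3760982 counts, and intervals on counts and limits of 3 counts cover counting error only.

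The clock genes and lists were chosen with earlier results of these data known. All 10 genes were named, with 9 fixed further genes, and up to 12 called others by smallest p. Sequences came from RefSeq windows, matched for 10 of 10 genes. Alternatives were RLE, upper quartile and unscaled libraries, DESeq2 1.42.0, voom and FPKM fits of limma 3.58.1, no filter or 5 CPM in 2 libraries, a replicate block, single transcripts, coding or non-retained-intron transcripts, and each library left out. A gene of the further list and a sequence window are not reported here.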

Additional observations from a re-analysis of the deposited data

How the results depend on the processing

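BHLHE40, NFIL3 and PER3 kept their direction and stayed past the threshold in every alternative that could test them, with log2 fold changes from 3.35 to 4.06, from 1.54 to 1.78 and from 3.52 to 5.21. CLOCK stayed between -1.20 and -0.90 and lost its call in the FPKM fits only. The count of 5 clock genes past the threshold became 3 of 5 tested, 2 of them higher, without retained-intron transcripts and on protein-coding transcripts alone. Of all genes tested in these ways 35% and 41.6% passed. In the limma fit of log2(FPKM + 0.1), 0 clock genes passed as lower. There CLOCK was at -1.11 (adjusted p of 0.0625) and ARNTL at -1.62 (0.0634). In the limma fit at a pseudocount of 1, the 1 lower call was ARNTL (0.0492) and not CLOCK (0.0602). Leaving out 1 library gave 4 to 5 clock genes, 14 to 17 further clock genes and 1677 to 3095 of all genes, of which 851 to 1616 were higher and 826 to 1479 lower. There the lone library of a group is assumed to vary like the other group. All genes past the threshold numbered 1867 (864 higher) of the 4487 tested on coding transcripts alone. On log2(FPKM + 0.1) they numbered 1899 (916 higher, 983 lower) of 8055.

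ARNTL, at 0.00, turned to -0.000931 with RLE, -0.0992 unscaled, -0.00261 with voom, -0.18 without ethanol replicate 2 and -0.00194 without methylparaben replicate 2 (range with 1 library left out -0.18 to 0.21), and to -1.24 and -1.62 on FPKM values. PER2 turned to -0.45 without methylparaben replicate 2 (range with 1 library left out -0.45 to 0.86). RORA turned to -0.30 and -0.36 on FPKM values and -2.38 for RORA-207, CSNK2A1 to -0.42 for CSNK2A1-243 and NONO to -0.98 for NONO-214. The cause of these was not tested. Deviations of same-numbered libraries from their group means had only a weak negative correlation over the tested genes (-0.150), and nothing in the labels pairs these libraries. With the replicate number as a block, 2488 of the 8055 tested genes and 5 of the 8 tested clock genes passed. With crossed numbers, chosen after seeing the data, 3292 and 5 of these passed. PER1, CRY2, CRY1 and ARNTL had 8 to 57 reads each, and the parts of depth and of the few countable bases in this were not tested.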

Other observations

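The authors' deposited table gives p-values per transcript from a comparison of their own, without fold changes. In the authors' deposited table, BHLHE40-201 and NFIL3-201 are listed with an adjusted p of 0, PER3-207 with 9.93e-05, CLOCK-201 with 0.000313, PER3-205 with 0.00317 and CRY1-205 with 0.0204. The other 16 clock gene transcripts with reads had adjusted p above 0.05 in the authors' deposited table, among them ARNTL-208 at 0.125, BHLHE41-201 at 0.837 and PER2-201 at 0.961. The share of all transcripts under 0.05 in the authors' comparison was not computed, so these numbers only describe the clock gene transcripts.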
